A study of Mus musculus with 4 samples.

Results

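Dusp1, Dusp2, Dusp4, Dusp5 and Dusp6 encode MAPK phosphatases, and Spry1, Spry2, Spry4, Spred1 and Spred2 encode Sprouty and Spred proteins, which all restrain signalling through the ERK MAP kinases. These 10 genes were chosen by name, and all 10 were found on the array, with 13 probes in all, among 29675 genes. Each gene is described by its probe with the highest mean signal. Of the 10, 9 were measured on all 4 arrays, which means well above background and not saturated, and Spry4 was well above background on 1 array only. Levels are given on the log2 scale relative to the array's own 75th percentile, so that 0 is that percentile, and levels of different probes are not compared with each other.

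The arrays measured total RNA from Swiss 3T3 cells, a mouse fibroblast line, with 1 array for each of 4 groups and RNA pooled from 3 samples on each array. The groups are Lpar1+/+ (WT) fibroblasts labelled cocultured at 0 h, Lpar1-/- (KO) fibroblasts labelled cocultured at 0 h, and both genotypes at 24 h. The product of Lpar1 binds lysophosphatidic acid, a serum lipid, and can activate ERK through G proteins. The coculture partners were wild-type mast cells grown from mouse bone marrow with IL-3, and per the labels' protocols the coculture held 100 ng/ml of the cytokine SCF. The KO cells came from 1 single-cell clone made with CRISPR/Cas9, so the genotype and the clone cannot be told apart. The series' design text speaks of fibroblasts with or without mast cells, and the protocols describe collecting adherent cells or removing CD117-bearing cells with magnetic beads. Which of these applies to which array, and what the 0 h samples contained, is not given in the sources used here. The comparisons ask how these genes differ over time within a genotype, and between genotypes at 1 time.

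Growth factor receptors and many G protein-coupled receptors activate ERK through Ras, Raf and MEK. Active ERK switches on genes whose products then turn the pathway down. Dual-specificity phosphatases (Dusp) remove the activating phosphates from MAP kinases: Dusp1, Dusp2, Dusp4 and Dusp5 act mainly in the nucleus and Dusp6 in the cytoplasm. Dusp5 and Dusp6 prefer ERK, whereas Dusp1 also acts on p38 and JNK. Sprouty proteins act upstream of ERK at the adaptor and Raf steps, and Spred proteins bring the Ras inhibitor neurofibromin to the membrane.

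With 1 array per group there is no spread between replicates, so no difference below was tested and none carries a p-value. Errors are standard errors (SE) from the scanner software's spot error, and they cover neither the cultures nor the labelling. Genes counted below as called were at least 2-fold apart, a log2 difference of 1, and the count describes these arrays and not the conditions. The probe of the targeted gene, Lpar1, read −3.20 (0 h) and −3.15 (24 h) in WT cells and −3.43 (0 h) and −3.61 (24 h) in KO cells. Where the probe lies relative to the edit was not examined, so its signal does not test the genotype. An alternative set each array to the median of the 11 fibroblast markers measured on all 4 arrays (fibroblast scaling). That median was 3.34 (0 h) and 4.38 (24 h) in WT and 2.35 (0 h) and 3.55 (24 h) in KO. All 14 markers had other medians, given below. The marker at the median was Dcn on WT 0 h, Vim on WT 24 h and Col3a1 on both KO arrays. This scaling therefore sets different probes against each other. It moved the median difference of all genes from 0.28 to −0.76 (24 h minus 0 h, WT), from 0.23 to −0.97 (KO), from 0.056 to 1.04 (KO minus WT, 0 h) and from −0.093 to 0.73 (24 h), and its value is given where it turns the direction of a member's difference printed below.

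The arrays labelled 0 h carried mast cell RNA and those labelled 24 h carried little of it. Both 0 h arrays detected all 15 mast cell markers well above background, while 11 (WT) and 10 (KO) were at 24 h, and their median signal was 3.18 (0 h) and −4.40 (24 h) in WT and 4.36 (0 h) and −4.72 (24 h) in KO. The 10 pan-leukocyte markers had a median KO minus WT difference of 1.1 at 0 h. Of the 10, 9 were at least 2-fold higher in KO at 0 h, against 9.34% of all genes. The 14 fibroblast markers had medians of 2.62 (0 h) and 2.85 (24 h) in WT and 2.11 (0 h) and 3.26 (24 h) in KO. Among them Thy1, a surface glycoprotein of many fibroblasts, read −7.02 and −7.41 (the latter not well above background) in WT and 3.73 and 4.12 in KO. In bulk RNA such as this, fewer cells of a type and less RNA per cell cannot be told apart. Between the arrays of each comparison, 8 spike-in RNAs brighter than −4 on average differed by a median of 0.24 (24 h minus 0 h, WT), 0.46 (24 h minus 0 h, KO), 0.33 (KO minus WT, 0 h) and 0.54 (KO minus WT, 24 h). The 2 dimmer spike-ins differed by 1.12, −0.30, 0.63 and −0.79 in that order.

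**Figure D1:**
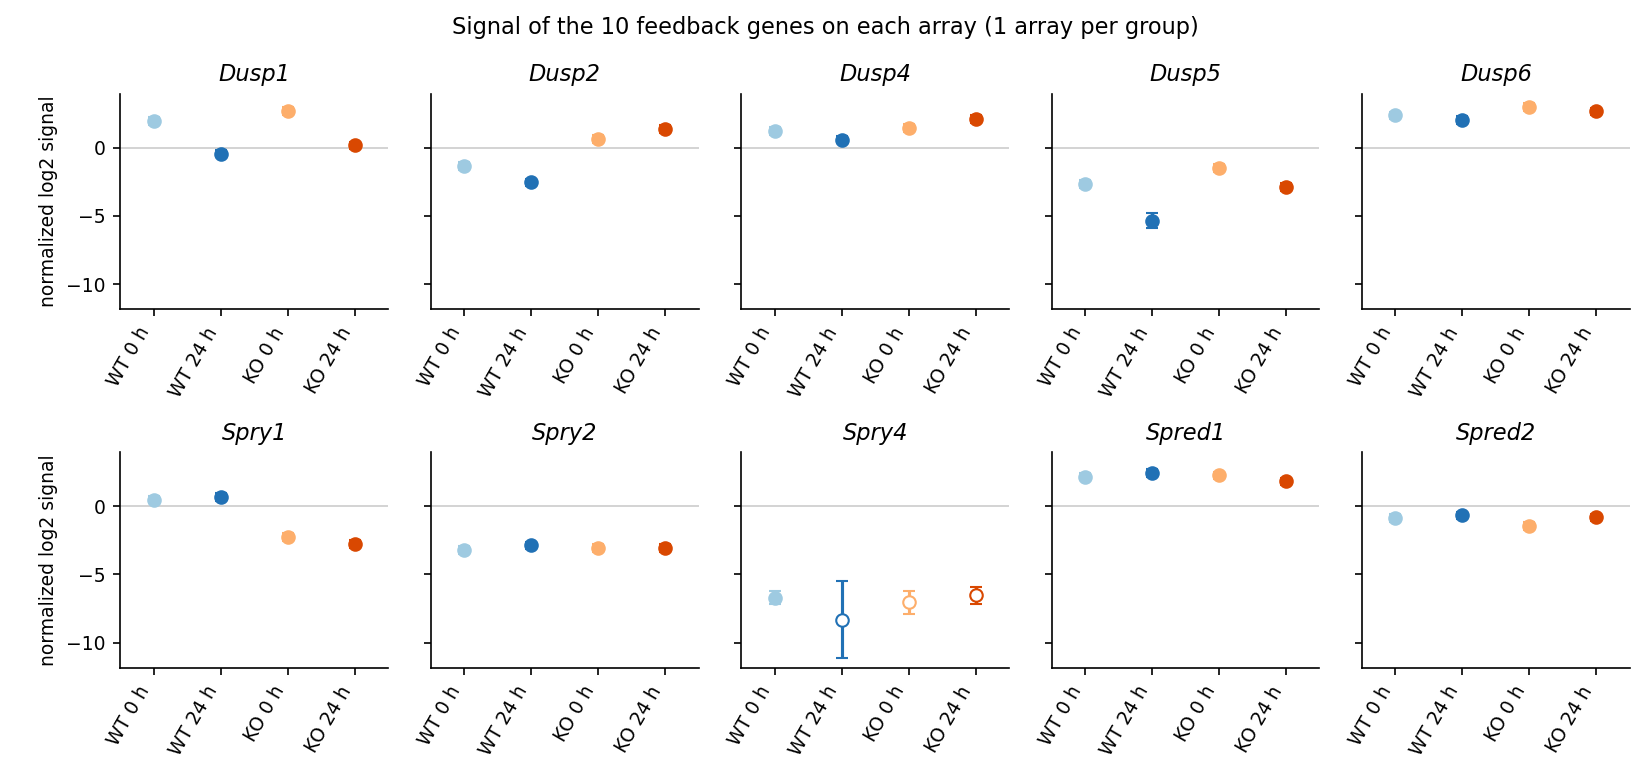
Signal of each of the 10 genes on each array, as log2 signal relative to the array's 75th percentile, with bars of 1.96 SE of the spot error (1 array per group). Open points were not well above background. Dusp1 and Dusp5 read lower at 24 h in both genotypes, Dusp2 and Dusp5 read higher and Spry1 lower in KO at both times, while Dusp6, Spry2, Spred1 and Spred2 stayed within a range of 1 log2.

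Between 0 h and 24 h, Dusp1 and Dusp5 were lower on the later array in both genotypes, and Dusp2 was lower at 24 h in WT alone among the calls. In WT, 3 of the 9 measured members were at least 2-fold lower at 24 h and 0 were higher. Of all 19191 genes tested in that comparison, 5.57% were at least 2-fold lower and 15.8% higher, 21.4% in all. In KO, 2 of 9 members were lower and 0 higher, against 10.9% of 17857 genes lower and 9.49% higher, 20.4% in all. The median member difference was −0.33 in WT and −0.31 in KO, while the median of all genes tested was 0.28 and 0.23. Mast cell markers moved the same way by far more, with a median of −7.95 over 11 measured markers in WT and −8.91 over 10 in KO, and their part in these differences was not tested.

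Dusp1, an immediate early phosphatase that inactivates p38, JNK and ERK, read 1.93 (0 h) and −0.43 (24 h) in WT cells and 2.70 (0 h) and 0.16 (24 h) in KO cells. Both 24 h arrays lay below both 0 h arrays, and every step in the order WT 24 h, KO 24 h, WT 0 h, KO 0 h exceeded 1.96 SE. Dusp1 had a 24 h minus 0 h difference of −2.36 (SE 0.20), 5.13-fold lower, in WT and of −2.53 (SE 0.20), 5.79-fold lower, in KO. The probe lies at chr17:26642536-26642526 in mm9, as the file gives it. A second probe named Dusp1, at chr17:26691258-26691199 (mm9), stayed near background on every array, well above it on none, and contributes no level.

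Dusp5, a nuclear phosphatase selective for ERK, read −2.67 (0 h) and −5.35 (24 h) in WT cells and −1.48 (0 h) and −2.91 (24 h) in KO cells (probe at chr19:53615682-53615741, mm9). WT 24 h was the lowest array by 2.43, KO 24 h and WT 0 h lay within 1.96 SE of each other, and KO 0 h was the highest. The 24 h minus 0 h difference was −2.67 (SE 0.30) in WT and −1.43 (SE 0.21) in KO. With normexp background correction, which raises dim signals, these became −1.26 and −1.04. The 2 dim spike-ins differed by 1.12 in WT and by −0.30 in KO, and the part of dim signal in the Dusp5 values was not tested.

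The promoters of Dusp1 and Dusp5 are shown because these are the members called lower at 24 h in both genotypes, and that of Dusp2 because it had the widest range over the arrays. Each is the stretch of 250 bases before the annotated start in RefSeq (GRCm38.p6), 5′ to 3′ on the gene's strand, with searched motifs in capitals. RefSeq's table held a promoter for 8 of the 10 members. Both strands were searched for the cyclic AMP response element TGACGTCA, the AP-1 motif TGANTCA, the ETS motif CCGGAAG, the CArG box (the core of the serum response element) and the E-box CACGTG. The searched windows also held the 50 bases after the start, 300 bases in all, and no matches overlapped.
Dusp1, chr17:26508473-26508722, minus strand: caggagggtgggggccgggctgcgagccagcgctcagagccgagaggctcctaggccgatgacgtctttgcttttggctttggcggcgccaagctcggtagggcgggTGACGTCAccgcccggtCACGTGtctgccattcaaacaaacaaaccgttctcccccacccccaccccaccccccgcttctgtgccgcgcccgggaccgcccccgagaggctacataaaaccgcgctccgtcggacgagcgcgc
Dusp5, chr19:53528895-53529144, plus strand: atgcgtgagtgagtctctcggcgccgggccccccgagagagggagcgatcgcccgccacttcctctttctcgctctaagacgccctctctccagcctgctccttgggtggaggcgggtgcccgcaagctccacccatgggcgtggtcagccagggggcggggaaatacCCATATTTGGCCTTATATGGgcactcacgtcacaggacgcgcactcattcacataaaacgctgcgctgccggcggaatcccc
Dusp2, chr2:127335909-127336158, plus strand: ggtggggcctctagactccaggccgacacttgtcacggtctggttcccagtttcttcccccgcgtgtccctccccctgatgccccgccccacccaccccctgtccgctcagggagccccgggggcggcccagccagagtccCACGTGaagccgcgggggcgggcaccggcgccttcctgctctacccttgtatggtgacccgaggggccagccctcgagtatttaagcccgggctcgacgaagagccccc

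The Dusp1 promoter held 1 cyclic AMP response element, from −143 to −136 counted from the start, and 1 E-box from −126 to −121. The Dusp5 promoter held 2 adjacent CArG boxes, CCATATTTGG from −82 to −73 and CCTTATATGG from −72 to −63. The Dusp2 promoter held 1 E-box, from −109 to −104. The other 5 member promoters held none of the 5 motifs. Of all 32851 promoter windows, 1.79% held the cyclic AMP response element, 1.63% a CArG box, 7.15% the E-box, 7.81% the AP-1 motif and 8.86% the ETS motif. A match describes letters in this window and is neither a site nor a cause.

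Dusp2, a nuclear phosphatase known from activated blood cells, read −1.35 (0 h) and −2.55 (24 h) in WT cells and 0.65 (0 h) and 1.35 (24 h) in KO cells (probe at chr2:127163930-127163989, mm9). Both KO arrays lay above both WT arrays, and all steps in the order exceeded 1.96 SE. Its 24 h minus 0 h difference was −1.20 (SE 0.21) in WT and 0.70 (SE 0.20) in KO. In WT the difference fell under 2-fold with normexp, at −0.79. The KO value turned to −0.50 with fibroblast scaling, and the WT value was then −2.24.

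Dusp4, a nuclear phosphatase that acts on ERK and JNK, read 1.23 (0 h) and 0.60 (24 h) in WT cells and 1.43 (0 h) and 2.09 (24 h) in KO cells (probe at chr8:35882045-35882104, mm9). The 0 h arrays lay within 1.96 SE of each other, with WT 24 h below and KO 24 h above them. The change between times was −0.64 (SE 0.20) in WT and 0.66 (SE 0.20) in KO, each under 2-fold, and −1.68 and −0.54 with fibroblast scaling.

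**Figure D2:**
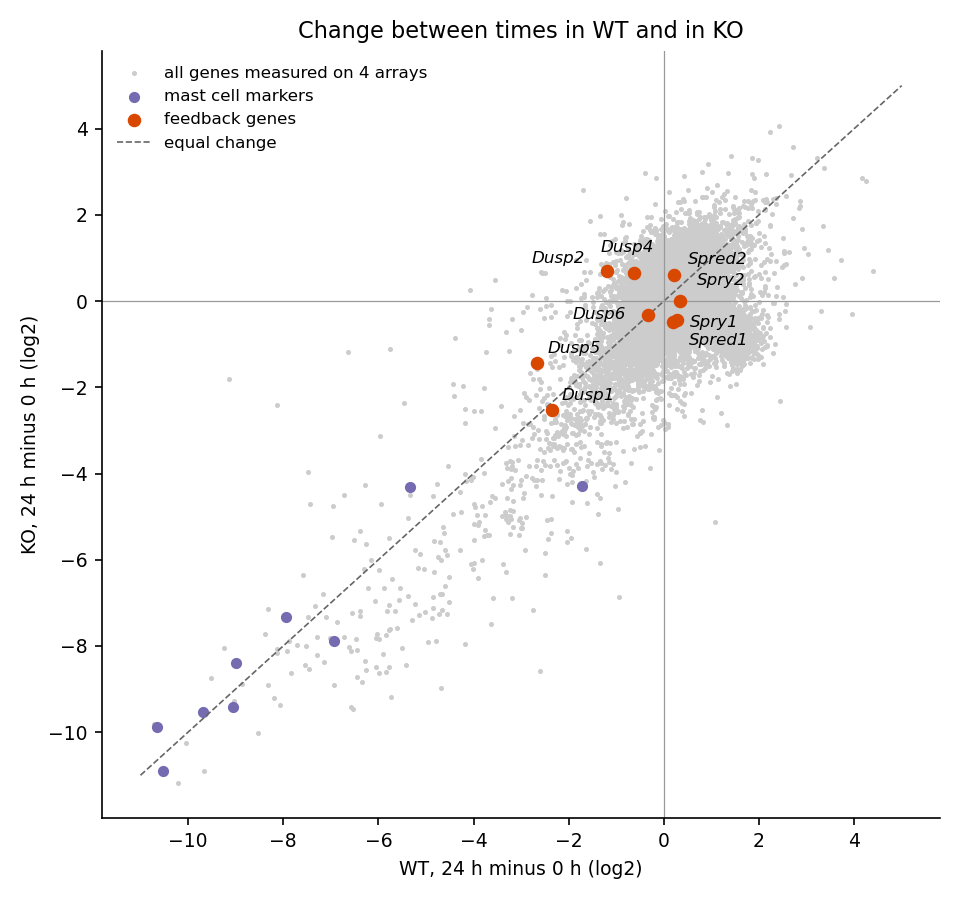
Difference between 24 h and 0 h in WT (horizontal axis) and KO (vertical axis), in log2, for every gene measured on 4 arrays (grey), the 9 mast cell markers among them (purple) and the 9 measured members (orange). Most mast cell markers lie far down near the line of equal change, but Hdc lies apart at −1.72 and −4.29. Dusp1 lies close to that line at −2.36 and −2.53, and Dusp2, Dusp4 and Dusp5 lie above it.

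Between genotypes, Dusp2 and Dusp5 were higher and Spry1 was lower in KO at both times, and Dusp4 was higher in KO at 24 h. At 0 h, 2 of the 9 measured members were at least 2-fold higher in KO and 1 was lower, against 9.34% higher and 4.07% lower of 20308 genes, 13.4% in all. At 24 h, 3 were higher and 1 lower, against 5.76% higher and 12.2% lower of 17283 genes, 18.0% in all. The median member difference was 0.20 at 0 h and 0.60 at 24 h, beside 0.056 and −0.093 over all genes tested. The 0 h and 24 h pairs share no array. At 24 h both arrays detected 9 of the 15 mast cell markers well above background, and 8 of these 9 were above 0 in KO minus WT, with a median of 0.68, the same direction as Dusp2, Dusp4 and Dusp5. Cpa3, a mast cell protease, read −1.75 in WT and −1.07 in KO, Fcer1a, a chain of the IgE receptor, −3.51 and −2.82, and the transcription factor gene Gata2 −2.16 and 0.062. The marker Hdc went the other way, with −3.15 in WT and −4.72 in KO. Mcpt4 and Hpgds were well above background in WT alone, and Kit in KO alone. Ms4a2, Tpsab1 and Mrgprb2 were not well above background on either array. Over all 15 markers without the filter, 2 were at least 2-fold higher and 3 lower in KO, with a median of 0.11. Without the filter, 5.59% of all genes were higher and 25.7% lower. The part of these markers in the members' differences was not tested.

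Spry1, which blocks growth factor signalling to ERK, read 0.48 (0 h) and 0.68 (24 h) in WT cells and −2.28 (0 h) and −2.77 (24 h) in KO cells (probe at chr3:37543403-37543462, mm9). Both KO arrays lay below both WT arrays, and the WT arrays lay within 1.96 SE of each other. KO minus WT was −2.76 (SE 0.20), or 6.79-fold lower, at 0 h and −3.46 (SE 0.21), or 11-fold lower, at 24 h. The difference lay between −1.78 and −2.93 at 0 h and between −2.63 and −3.46 at 24 h over the settings that kept this probe; the stricter filter left it out as too dim. The median KO minus WT difference at 0 h was 0.95 over the mast cell markers and 1.1 over the leukocyte markers. Over 13 measured fibroblast markers it was −0.47, with 5 at least 2-fold lower and 2 higher, against 4.07% and 9.34% of all genes. At 24 h it was −0.086 over 11 fibroblast markers, with 3 lower and 1 higher, against 12.2% and 5.76%. The part of all these markers in the Spry1 values was not tested.

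Dusp2 differed between the genotypes by 2.01 (SE 0.20), or 4.01-fold, at 0 h and by 3.90 (SE 0.21), or 14.9-fold, at 24 h. The 24 h value was the largest difference of any member in any comparison. At 0 h the leukocyte markers were higher in KO too, by a median of 1.1, and their part in the 0 h value was not tested. Dusp5 was higher in KO by 1.20 (SE 0.20) at 0 h and 2.43 (SE 0.31) at 24 h, and by 0.94 and 1.16 with normexp, so that the 0 h call was lost. The 2 dim spike-ins differed between the genotypes by 0.63 at 0 h and −0.79 at 24 h. Dusp4 was higher in KO by 0.20 (SE 0.20) at 0 h and 1.49 (SE 0.20), or 2.82-fold, at 24 h.

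Dusp1 and Dusp6 differed less between genotypes. Dusp6, the cytoplasmic ERK phosphatase and a common readout of ERK activity, read 2.36 (0 h) and 2.03 (24 h) in WT cells and 2.96 (0 h) and 2.65 (24 h) in KO cells (probe at chr10:98729985-98730044, mm9). No neighbours in its order, WT 24 h, WT 0 h, KO 24 h, KO 0 h, differed by more than 1.96 SE, although KO lay above WT at both times. KO minus WT was 0.61 and 0.63 for Dusp6 and 0.77 and 0.60 for Dusp1 at 0 h and 24 h (SE 0.20 each). The bright spike-ins, which were added in the laboratory, differed in the same direction by 0.33 and 0.54. With fibroblast scaling the Dusp6 values were 1.59 and 1.45 and those of Dusp1 were 1.76 and 1.42, all past 2-fold.

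**Figure D3:**
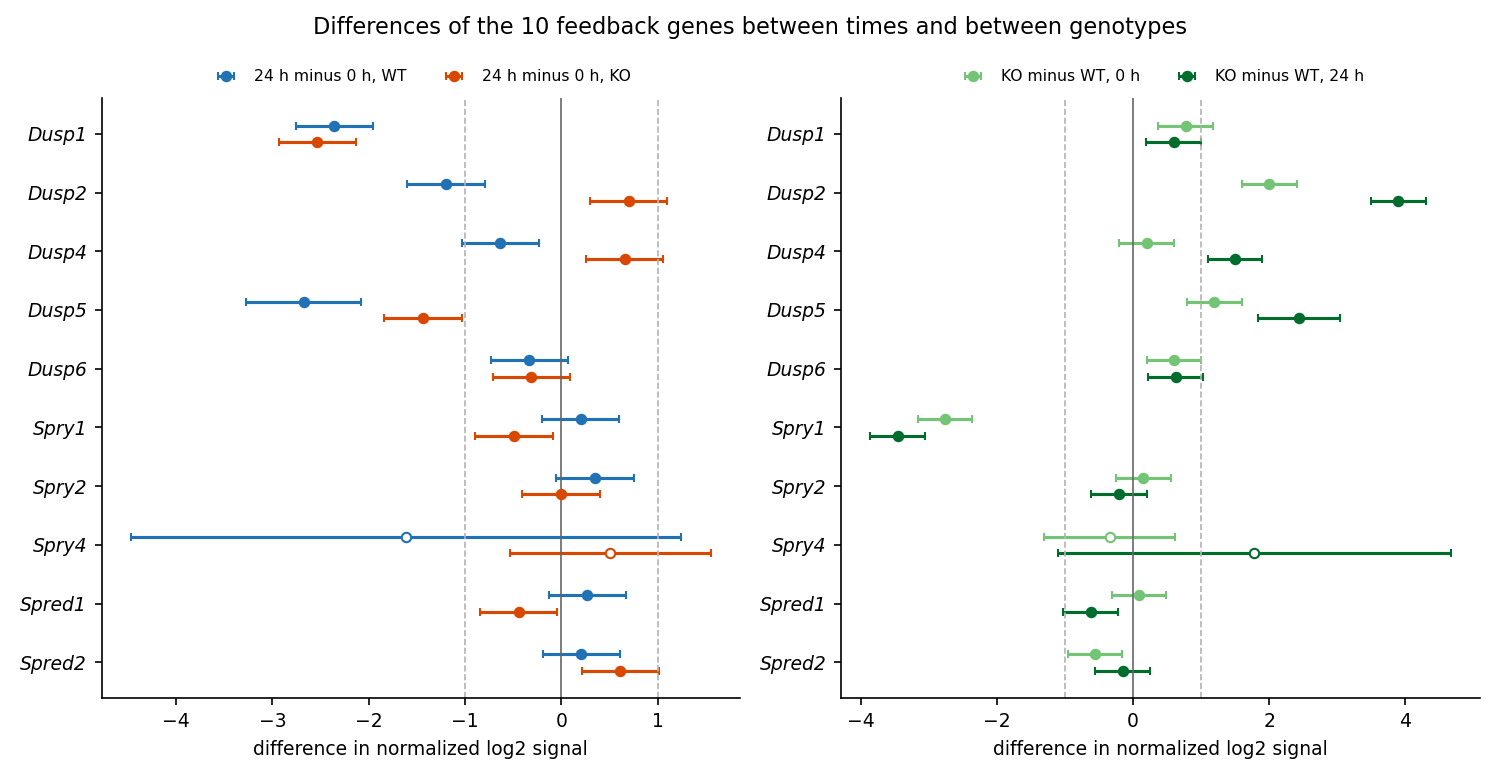
Differences of each member in log2 between times (left) and between genotypes (right), with bars of 1.96 SE of the spot error. Dashed lines mark 2-fold and open points were not measured on every array of the difference. Dusp2 stands at 2.01 and 3.90 and Spry1 at −2.76 and −3.46 for KO minus WT at 0 h and 24 h.

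On the percentile scale the signals of Spry2, Spred1 and Spred2 stayed within 1 log2 unit over the arrays. Spry2, which like Spry1 restrains growth factor receptors, read −3.23 (0 h) and −2.88 (24 h) in WT cells and −3.08 (0 h) and −3.09 (24 h) in KO cells (probe at chr14:106291904-106291845, mm9). No neighbouring arrays differed by more than 1.96 SE, and the whole range was 0.35. The genotypes differed by 0.15 at 0 h and by −0.20 at 24 h (SE 0.21 each), beside −2.76 and −3.46 for Spry1. With fibroblast scaling these Spry2 values were 1.13, past 2-fold, and 0.62, so that the 24 h direction turned.

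Spred1, the Spred protein whose human gene is mutated in Legius syndrome, read 2.16 (0 h) and 2.44 (24 h) in WT cells and 2.25 (0 h) and 1.81 (24 h) in KO cells (probe at chr2:117005906-117005965, mm9). KO minus WT was −0.63 (SE 0.20) at 24 h at this probe, and turned to 0.20 with fibroblast scaling. At the 2 other Spred1 probes it was −0.28 and 0.068, so the probes disagree in sign. All 3 probes gave a smaller 24 h minus 0 h value in KO than in WT, by −0.72, −0.50 and −0.45.

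Spred2, its relative, read −0.88 (0 h) and −0.68 (24 h) in WT cells and −1.44 (0 h) and −0.83 (24 h) in KO cells (probe at chr11:19922416-19922475, mm9). KO 0 h was the lowest array and the other 3 lay close together. Spry4, a further Sprouty, read −6.70 on WT 0 h, the 1 array where it was well above background, and −8.31 (24 h, WT), −7.04 (0 h, KO) and −6.53 (24 h, KO) elsewhere. The lowest signals called well above background on those arrays were −6.16, −6.77 and −6.69. At 0 h its WT signal was at least 1.05-fold that of KO, and no other difference of Spry4 is given.

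The change between times differed between the genotypes by at least 2-fold in Dusp2 (1.90, SE 0.29), Dusp4 (1.30, SE 0.29) and Dusp5 (1.24, SE 0.35), in each case with the KO change above the WT change. These are 3 of the 9 measured members, with 0 in the other direction, against 4.72% of 17111 genes above and 13.3% below, 18.0% in all. A scaling by each fibroblast marker's own deviation was added after seeing the data. With it the counts were 1 above (Dusp2) and 2 below (Spry1, −1.02, and Spred1, −1.04). It put 1.99% of all genes above and 19.05% below. For Dusp1 the value was −0.17 and for Dusp6 0.020 (SE 0.29 each), the latter −0.14 with fibroblast scaling. For Spry1, Spry2, Spred1 and Spred2 the value was −0.69, −0.35, −0.72 and 0.41. For Dusp5 it was 0.22 with normexp.

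Other genes of the pathway were taken from lists chosen with earlier results of these data known. Of 13 ERK-induced genes, all measured, 6 were at least 2-fold higher and 1 lower in KO at 24 h, against 5.76% and 12.2% of all genes, with a median of 0.97. At 0 h the counts were 0 higher and 1 lower, the cyclin gene Ccnd1 (−1.11), against 9.34% and 4.07%, with a median of 0.38. Fibroblast scaling gave 12 higher at 0 h, where it put 52.9% of all genes higher, and 11 at 24 h, where it put 31.2% higher. The genes named from these lists include some picked after their values were seen. Fosl1, an AP-1 subunit that accumulates under sustained ERK activity, differed at 24 h by 2.40. The ETS factors Etv4 and Etv5, induced by FGF signalling in many tissues, differed by 2.31 and 2.0. Epha2, an ephrin receptor, was 2.04 higher. In the other direction Fos, the immediate early AP-1 subunit, was −1.32 at 24 h and 0.75 at 0 h, or −0.49 and 1.73 with fibroblast scaling.

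Several of these genes were ordered over the arrays like Dusp4. Etv4 read 2.77 (0 h) and 2.30 (24 h) in WT cells and 3.10 (0 h) and 4.61 (24 h) in KO cells. Fosl1 read 0.15 and −1.01 in WT and 0.53 and 1.39 in KO at these times, and Epha2 read 1.93 and 1.14 in WT and 2.15 and 3.17 in KO. In each, as in Dusp4, KO 24 h was the highest array and WT 24 h the lowest on the percentile scale. With fibroblast scaling the change between times in KO was −0.34 for Fosl1, −0.18 for Epha2 and −0.54 for Dusp4, so that KO 24 h was no longer the highest, and 0.31 for Etv4. Between times, 4 of the 13 ERK-induced genes were lower and 1 higher in WT, with a median of −0.77, and in KO 3 were lower and 4 higher, with a median of 0.13, or −1.07 with fibroblast scaling. Of all genes, 5.57% were lower and 15.8% higher in WT, and 10.9% lower and 9.49% higher in KO. The 24 h minus 0 h difference of Fos was −3.17 in WT and −5.23 in KO, and that of Egr1, an immediate early zinc finger factor, was −2.42 and −2.43, beside −2.36 and −2.53 for Dusp1.

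**Figure D4:**
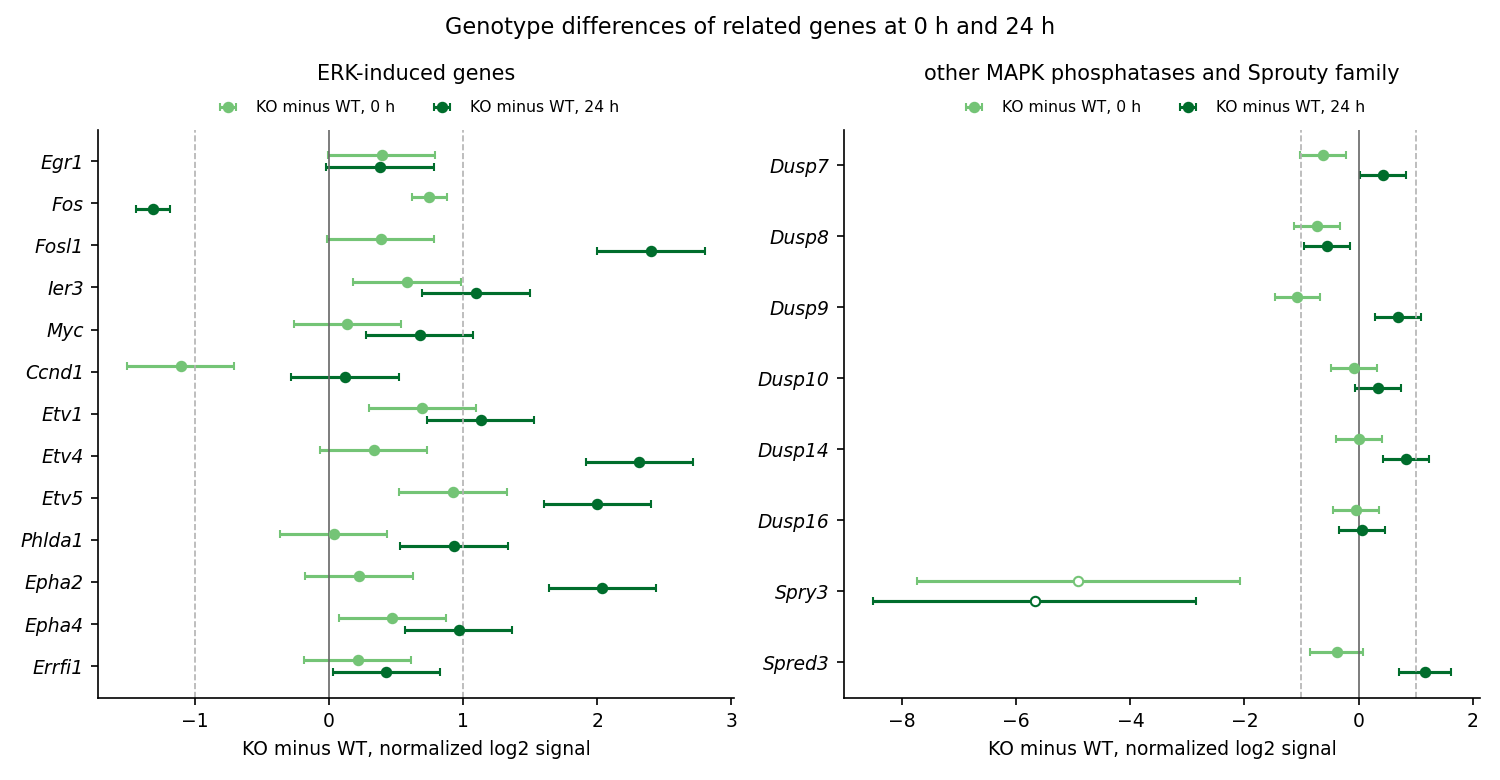
KO minus WT difference in log2 at 0 h and 24 h, with bars of 1.96 SE of the spot error, for 13 ERK-induced genes (left) and 8 further phosphatase and Sprouty family genes (right). Dashed lines mark 2-fold, and open points (Spry3) were not well above background on the KO arrays. Fosl1, Etv4, Etv5 and Epha2 lie between 2.0 and 2.40 at 24 h, and Spry3 lies far to the left at both times.

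Among 8 further family members, Spry3 was like Spry1 in direction. It read −3.87 on WT 0 h and −3.01 on WT 24 h, and was not well above background on KO 0 h (−8.78) or KO 24 h (−8.68). It was at least 7.45-fold lower in KO at 0 h and at least 12.9-fold lower at 24 h, the bright signal set against the lowest signal well above background on the dim array. Of the 7 others, Dusp9, an ERK phosphatase, was lower in KO at 0 h (−1.07, or −0.93 with normexp), and Spred3 was higher at 24 h (1.16), though under 2-fold with normexp (0.72). In KO, 3 of 7 were higher at 24 h than at 0 h, namely Dusp7 (1.09), Dusp9 (1.13) and Spred3 (1.83, or 0.98 with normexp), against 0 of 8 in WT. With fibroblast scaling these KO values were −0.11, −0.070 and 0.63. On the percentile scale, 9.49% of all genes were at least 2-fold higher at 24 h in KO and 15.8% in WT.

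Of 13 Ras, Raf, MEK and ERK genes with their scaffold and Ras inhibitors, 0 were 2-fold apart between genotypes at either time, against 13.4% of all genes at 0 h and 18.0% at 24 h, with medians of −0.19 at 0 h and 0.13 at 24 h. Between times 0 of 13 were called in WT and 1 in KO, against 21.4% and 20.4% of all genes. The 1 was Nras, with 1.1, which was 0.95 with normexp and −0.10 with fibroblast scaling. At the other Nras probes it was 0.23 and −0.014. Fibroblast scaling put 5 of the 13 at least 2-fold higher in KO at each time, against 52.9% and 31.2% of all genes. Of 14 receptors and adaptors, 3 were lower in KO at 0 h with 0 higher, and 3 were lower and 1 higher at 24 h. Of all genes, 4.07% were lower and 9.34% higher at 0 h, and 12.2% lower and 5.76% higher at 24 h. Frs2, the docking protein that links FGF receptors to Ras, read 4.71 on both WT arrays, 1.87 on KO 0 h and 2.12 on KO 24 h, and its KO minus WT difference was −2.84 and −2.59. Pdgfra, a PDGF receptor and also a fibroblast marker, differed by −2.67 and −1.29, and Gab1, an adaptor, by −1.07 and −1.06, or −0.71 and −0.79 with normexp. Met, the receptor of hepatocyte growth factor, was the 1 higher gene (1.34, or 0.91 with normexp). Of 9 p38 and JNK pathway genes, 1 was lower in KO at 0 h and 2 at 24 h, against 4.07% and 12.2% of all genes. These were Mapk12 (−2.58 and −1.37), a p38 kinase, and at 24 h the JNK gene Mapk9 (−1.16). At the other Mapk9 probe the 24 h value was −0.25.

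For each member measured on all 4 arrays, the gene with the most similar pattern was sought among 12837 genes, by the root mean square difference of the 4 centred log2 signals. The nearest gene to Dusp1 was Plk3, a polo-like kinase, at 0.079. For Dusp2 it was Chadl (0.076), for Dusp4 Gsdme (0.032) and for Dusp5 Kcnk5 (0.12). For Dusp6 it was Zzef1 (0.020) and for Spry1 Adm, which encodes the peptide adrenomedullin, at 0.082. Itgav, an integrin chain, was nearest to Spry2 (0.013), Sctr to Spred1 (0.012) and Hsf1, the heat shock factor, to Spred2 (0.014). With 4 arrays and many genes such closeness is a description of these arrays only.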

How the data were processed

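Per the file headers, the authors read the spot intensity of 4 Agilent arrays on 1 slide, each in 1 colour (Cy3), with the Agilent Feature Extraction software, version 12.1.1.1. Background was removed by spatial detrending, and signals were detrended within each array but not scaled between arrays, per the file headers. The authors' deposited value table holds a ratio, the processed signal divided by 1 constant per array, and served as an alternative. Each constant lies close to that array's 75th percentile, so this alternative nearly repeats the percentile scale. From the scanner files, log2 of the processed signal minus the array's 75th percentile over 43020 non-control spots was computed with Python 3.11.15. Control spots and outlier flags were left out. RefSeq (GRCm38.p6) gave a current symbol for the accessions of 29110 probes out of 39429, and 10319 kept the file's name. A gene took its probe with the highest mean signal. The members and lists were chosen with earlier results of these data known. All 10 members are named, and of other lists up to 3 genes at either end that also passed 2-fold with normexp, or those that a count of 5 or fewer singles out. Some genes outside this rule are named too, such as Etv5, Cpa3 and Fcer1a. The code that counts calls was checked on simulated signals with known changes. Alternatives were quantile normalization, normexp with quantile normalization (offset 50, limma 3.58.1), the value table, fibroblast scaling, no filter, a stricter filter and the mean of probes. A planned comparison of protein sequences was not made here. Precision is limited by having 1 array per group.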

Additional observations from a re-analysis of the deposited data

Results flagged for a closer look

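Some genes moved in opposite directions in the 2 genotypes or at the 2 times, each way beyond 1.96 SE of the spot error. With 1 array per group these contrasts were not tested. Of 67 genes of the pathway, members included, 7 read lower at 24 h in WT and higher in KO. Dusp2 did so by −1.20 and 0.70, a difference between the changes of 1.90, and Dusp4 by −0.64 and 0.66, a difference of 1.30. The others were Dusp9 (1.76), Fosl1 (2.02), Etv4 (1.98), Etv5 (1.08) and Epha2 (1.81). With fibroblast scaling only Etv4, of these 7, still read higher at 24 h in KO (0.31), while Dusp2 (−0.50), Dusp4 (−0.54), Dusp9 (−0.070), Fosl1 (−0.34), Etv5 (−0.52) and Epha2 (−0.18) did not.

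In 4 genes of these lists KO minus WT had opposite signs at 0 h and 24 h. Dusp7 went from −0.62 to 0.43, a difference of 1.05, and Dusp9 from −1.07 to 0.69, a difference of 1.76. Met, the receptor of hepatocyte growth factor, went from −0.25 to 1.34, a difference of 1.59. Fos went from 0.75 to −1.32, a difference of −2.06. With fibroblast scaling only Fos (1.73 and −0.49) and Dusp9 (−0.086 and 1.52) still had opposite signs. Mast cell and leukocyte markers were higher in KO at 0 h, by a median of 0.95 and 1.1, and their part in these values was not tested.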

How the results depend on the processing

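No paired analysis was possible because each group has 1 array. No called member difference changed sign under any of the 8 settings tried, but uncalled ones did, such as Dusp2 between times in KO (0.70, or −0.50 with fibroblast scaling). The settings with no filter and with the stricter filter kept the same signals, so they could not change a sign. Quantile normalization, the authors' value table and the mean of probes gave the same counts of called members. The value table is scaled by nearly the same 75th percentile, so its counts could hardly differ. The mean of probes could change only Dusp1 and Spred1, the members with more than 1 probe. Averaging in the dim second Dusp1 probe moved its change between times to −1.19 (WT) and −1.23 (KO). Normexp took 3 member values under 2-fold (Dusp2 between times in WT, Dusp5 between genotypes at 0 h, Dusp5 in the difference of changes). The stricter filter left 4 members and 1, 1, 0, 1 and 1 calls (between times in WT, between times in KO, between genotypes at 0 h, between genotypes at 24 h, and the difference of changes). Fibroblast scaling gave 5, 6 and 8 calls for the first 3 of these, and moved the median of all genes to −0.76, −0.97, 1.04 and 0.73 for the first 4. The 5 and the 6 were all lower, against 31.1% and 48.5% of all genes. Of the 8, 7 were higher in KO, against 52.9% of all genes. A scaling by each fibroblast marker's own deviation, added after seeing the data, gave 5 calls between times in KO and 5 between genotypes at 0 h, with medians of all genes at −0.52 and 0.68. It put 28.0% of all genes lower between times in KO and 31.5% higher in KO at 0 h. It took the difference of changes under 2-fold for Dusp4 (0.97) and Dusp5 (0.91). For Spry1 (−1.02) and Spred1 (−1.04) it took that difference past 2-fold the other way. Thus 1 member was higher and 2 lower in place of 3 and 0, against 1.99% and 19.05% of all genes with this scaling.

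Higher genes made up 73.9%, 46.5%, 69.7%, 32.0% and 26.2% of all calls in the 5 comparisons, and 65.0%, 60.8%, 58.3%, 46.1% and 45.6% with quantile normalization. They made up 38.9%, 45.6%, 59.3%, 50.3% and 41.5% with normexp and 2.74%, 0.779%, 98.0%, 91.1% and 16.2% with fibroblast scaling. The added scaling gave 43.0%, 3.66%, 95.2%, 55.1% and 9.45%. Dim signals limit Dusp5 on WT 24 h and Spry4 most.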
